A study of Mus musculus with 2 samples.

Results

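The Pro-osteoblast class is one of the cell classes that the authors assigned to stromal cells of mouse bone marrow. Its members were taken as the barcodes that passed the authors' filter and carry that class label. They number 347 of 2847 passing cells, with 42 of 948 in the sample Stroma1 and 305 of 1899 in Stroma2. Both samples are untreated marrow stroma of C56BL/6 mice aged 8 to 16 weeks, and no other genotype or treatment is labelled. Leg and pelvic bones were crushed and the fragments digested for 45 min at 37 °C, so that cells attached to bone were included. Living cells without CD45, Ter119 and CD31 on their surface were then sorted and captured in droplets by inDrops. Such a sort depletes blood cells, red cell precursors and endothelial cells. Nothing in the labels ties either sample to 1 animal or to a pool. The p-values rest on how the sums of all classes compared varied between these 2 samples, not on this class alone. Whether that is variation between animals cannot be told.

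Osteoblasts build bone. They secrete a matrix made mostly of type I collagen, a triple helix of Col1a1 and Col1a2 chains, and then mineralize it with calcium phosphate. The factors Runx2 and Sp7 are required for the lineage, osteocalcin (the Bglap genes) is a late product of the mature cell, and cells that become buried in the matrix turn into osteocytes. In marrow, stromal cells with the leptin receptor supply the chemokine Cxcl12 and are a source of new osteoblasts.

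Several features of the libraries bear on every result. Stroma1 has 2 libraries and Stroma2 has 3, and the class made up 3.97% and 4.95% of cells in those of Stroma1 and 20.3%, 13.5% and 14.0% in those of Stroma2. In the class, 18 of 42 cells (42.9%) of Stroma1 and 176 of 305 (57.7%) of Stroma2 had a barcode that another library of the same sample also holds, against 6.75% and 22.9% over all classes. The class thus holds 33 and 209 distinct barcodes. The labels do not tell whether libraries of a sample were made from the same droplets. If they were, 1 cell could be counted more than once, and the shares and intervals below would count libraries' copies rather than cells. This was not tested. In Stroma2, 80 such barcodes had at least 1 copy in the class, and for 73 of them all copies were in it. Cells with such a barcode had a median of 1934 counts in Stroma1 and 2553.5 in Stroma2, while class cells with a barcode of 1 library had 5800.5 and 6543. With each barcode used once per sample, the class share was 3.60% and 12.5%, and without all shared barcodes it was 2.71% and 8.81%. Using every cell it was 4.43% (95% exact binomial interval 3.21 to 5.94) and 16.1% (14.4 to 17.8), intervals that cover counting error only. The share was higher in Stroma2 in each of these counts, although the samples are of 1 group and this was not tested. Over both samples, 12 barcodes were found in both, 7 class cells among them.

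Class cells held more counts than other stromal cells. The median was 4422 counts per cell in Stroma1 and 4201 in Stroma2, against 1160 to 2107 in the other 5 classes compared here. Summed over cells the class held 187228 counts in Stroma1 and 1450797 in Stroma2. More RNA per cell and better recovery of it cannot be told apart in these counts.

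Type I collagen took up much of what was counted in these cells. Col1a1 and Col1a2 together were 39.0% of the counts of the class in Stroma1 and 42.7% in Stroma2, and the median cell had 39.8% and 44.1%. In the other 5 classes the same 2 genes were between 0.449% and 4.02% of counts, with Pre-osteoblast/chondrocyte at the top. A share of 10% or more was found in 346 of 347 class cells and in 12 of 2500 cells outside the class. Without shared barcodes the share was 39.0% and 41.5%. The third most abundant gene in both samples was Sparc, a collagen-binding protein of bone matrix, with 5.50% and 6.23% of counts, followed by the mitochondrial transcripts mt-Atp6 and mt-Co2 and by Serpinh1, the chaperone that binds newly made collagen. The 10 most abundant genes held 49.2% and 53.4% of class counts, and 13.5% and 13.4% of those of Adipocyte progenitor cells.

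**Figure D1:**
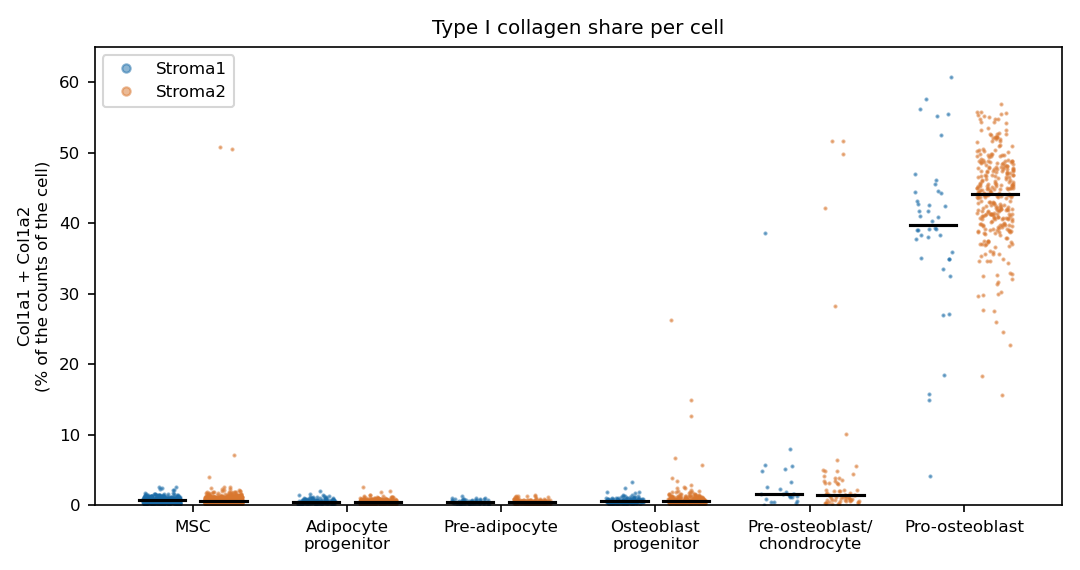
Share of each cell's counts that are Col1a1 or Col1a2 (vertical axis, %), by class (horizontal axis) and sample (colour); each point is 1 cell and each bar the median. The Pro-osteoblast medians are 39.8% and 44.1%, and 12 cells of other classes reach 10%.

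A few genes at such levels leave fewer counts for the rest. At an equal depth of 500 counts per cell, class cells had a median of 215 genes in Stroma1 and 199 in Stroma2, and the other 5 classes had between 321 and 350. After Col1a1 and Col1a2 were left out and cells were thinned to 300 counts, the class had 212 and 211 genes and the others 215 to 230. Levels are given below as CPM, the counts of a gene scaled to a common total for each class and sample, and they carry this effect. Differences are log2 changes from edgeR, whose TMM factors (0.590 and 0.506 for the class, 0.993 to 1.25 for the others) rescale the totals.

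The class was compared with the mean of 5 other classes (MSC, Adipocyte progenitor, Pre-adipocyte, Osteoblast progenitor and Pre-osteoblast/chondrocyte), each weighted equally on the log scale. Of 6229 genes tested, 1331 were higher in the class (21.4%) and 1118 lower (17.9%) at an adjusted p under 0.05, by edgeR's quasi-likelihood test with Benjamini-Hochberg adjustment. The median of all tested genes was 0.03. How the authors formed the classes is not given in the sources used here, and classes formed from the same counts would differ in many genes by construction. The counts of called genes are therefore a background for the lists below. With Col1a1 and Col1a2 left out, 1325 of 6405 genes were higher and 1174 lower. With raw totals and no TMM factors the median of all genes moved to -1.07, with 410 genes higher and 3606 lower. With raw totals from which the 2 collagens were removed it was -0.25, with 982 and 1556. Without shared barcodes, 1135 genes were higher and 996 lower, and 1079 and 936 of these were also called with all cells.

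The label was checked against its markers. At least 3 of the 6 markers Col1a1, Bglap, Bglap2, Car3, Sp7 and Mmp16 were counted in 39 of 42 cells of Stroma1 and 285 of 305 of Stroma2, and in 0 to 13.6% of cells of the other 5 classes. Markers of bone-forming cells were thus counted in nearly all members, and the label was kept. Such a count favours class cells, which were deeper. At 500 counts per cell Sp7 was in 7.14% and 11.5% of class cells and in 9.03% and 9.62% of Osteoblast progenitor cells. Bglap was then in 64.3% and 67.9% of class cells and in at most 6.06% of cells of any other class. The class may rest on these same genes, so the markers are no independent check.

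Osteocalcin, the vitamin K-dependent calcium-binding protein of bone, is encoded in the mouse by 3 neighbouring genes on chromosome 3 (GRCm38, GENCODE vM21), and nearly all of their counts lay in the class. Bglap (88383501 to 88384464) had 99.6% of its counts in all passing cells there, Bglap2 (88377736 to 88378699) 99.0% and Bglap3 (88368616 to 88372743) 99.4%. Reads of such near-identical copies can be split between them by the counting, so the levels of the single genes are uncertain. Bglap had 5549.4 CPM in Stroma1 and 3719.3 CPM in Stroma2, and between 0 and 134 CPM in the other classes. Bglap2 had 2451.6 and 1691.5 CPM, against 0 to 100.0 CPM, and Bglap3 had 427 and 386 CPM, against 0 to 16.7 CPM. All 3 genes were thus higher in the class in both samples. The log2 change of Bglap was 10.83 (SE 0.17, adjusted p = 1.9e-68, edgeR). This depends on a class with 0 counts, and with a floor of 3 counts for that class it was 10.11. Without shared barcodes it was 11.21. Among the libraries, Bglap stood at 4799.2 and 6179.0 CPM in those of Stroma1 and at 2236.7, 4692.7 and 4701.5 CPM in those of Stroma2, so library 2.1 was lowest. Bglap was counted in 36 of 42 and 269 of 305 class cells, and in at most 16.7% of the cells of any other class. Barcodes under 500 counts that carry no filter label held 328 and 236 CPM of Bglap, more than any other class.

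The promoters of 4 genes that stood high in the class are shown because their transcripts are among those that set it apart. Each is 300 bases long, from 250 before to 50 after the start of transcription, from RefSeq on GRCm38.p6. Capitals mark the letters ACCACA or the reverse complement TGTGGT, the core that Runx factors bind.
Bglap promoter, chr3:88384417-88384716, minus strand: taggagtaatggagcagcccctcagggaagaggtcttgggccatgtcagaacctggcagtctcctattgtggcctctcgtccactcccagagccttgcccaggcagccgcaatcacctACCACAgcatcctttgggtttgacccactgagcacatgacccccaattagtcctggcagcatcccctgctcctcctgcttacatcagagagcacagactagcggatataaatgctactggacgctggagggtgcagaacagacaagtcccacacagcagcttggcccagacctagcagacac
Ifitm5 promoter, chr7:140950194-140950493, minus strand: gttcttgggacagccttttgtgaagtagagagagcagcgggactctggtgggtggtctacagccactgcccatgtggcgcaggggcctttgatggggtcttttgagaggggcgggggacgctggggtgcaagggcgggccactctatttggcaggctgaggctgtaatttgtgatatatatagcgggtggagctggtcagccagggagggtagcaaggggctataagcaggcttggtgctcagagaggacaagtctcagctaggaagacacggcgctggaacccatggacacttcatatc
Col1a2 promoter, chr6:4505368-4505667, plus strand: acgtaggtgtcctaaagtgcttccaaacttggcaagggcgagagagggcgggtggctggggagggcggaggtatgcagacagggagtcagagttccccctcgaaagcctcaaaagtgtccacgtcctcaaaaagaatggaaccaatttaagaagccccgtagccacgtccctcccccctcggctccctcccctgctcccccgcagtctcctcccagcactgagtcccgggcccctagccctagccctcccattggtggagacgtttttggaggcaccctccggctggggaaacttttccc
Col11a2 promoter, chr17:34038888-34039187, plus strand: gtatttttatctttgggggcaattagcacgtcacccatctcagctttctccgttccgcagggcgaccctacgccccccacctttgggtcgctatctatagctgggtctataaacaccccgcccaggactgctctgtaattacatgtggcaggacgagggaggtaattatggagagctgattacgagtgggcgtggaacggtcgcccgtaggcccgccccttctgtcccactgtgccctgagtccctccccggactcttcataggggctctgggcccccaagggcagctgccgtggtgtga
The Bglap promoter holds the core once, starting 132 bases before the start, and the other 3 do not hold these letters in this window. The core was in 16.9% of the 27025 promoters of the table. It was in 10.9% of those of tested genes, in 10.6% of those of genes higher in the class and in 10.5% of those of genes lower in it. The share among higher genes is thus near that of all tested genes. A match is a description of letters and shows no binding.

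Among 18 tested genes of a list of 21 bone matrix proteins, 15 were higher in the class and 1 lower. Their median log2 change was 5.26, against 0.03 over all tested genes. The list holds Col1a1, Bglap and Bglap2, which are markers of the class, so it is no independent check of the label. Col1a1 had 201262.6 CPM in Stroma1 and 202082.0 in Stroma2 and at most 18363.6 CPM elsewhere, a log2 change of 8.41 (SE 0.21). Col1a2 had 188625.6 and 224943.9 CPM and at least 4178.1 CPM in every other class, with a log2 change of 5.87 (SE 0.19). Both chains were higher in the class than in the other classes in both samples. Sparc had 55013.1 and 62327.1 CPM (log2 change 4.17). Decorin (Dcn), a proteoglycan that binds collagen fibrils, had 4198.1 and 5363.9 CPM against 193 to 1290.4 CPM (log2 change 4.47). The fibril collagens of type V and XI that co-assemble with others were also higher, Col5a2 with a log2 change of 4.66, Col11a1 with 7.66 and Col11a2 with 10.39 (9.50 with the floor). Col11a2 had 99.5% of its counts in the class. Mgp, an inhibitor of calcification, went the other way, with 5.34 and 9.65 CPM against 525 to 2700.2 CPM (log2 change -5.98, SE 0.25).

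The sialoproteins did not follow. Osteopontin (Spp1) had 2189.8 and 3451.9 CPM in the class and 74070.0 and 78255.0 CPM in Pre-osteoblast/chondrocyte cells. Bone sialoprotein (Ibsp) had 1826.6 and 1829.3 CPM, in CPM below all other classes. That order carries the effect of Col1a1 and Col1a2, which held 39.0% and 42.7% of class counts and so lower its other CPM values. Their log2 changes against the mean of the others were 0.09 (adjusted p = 0.634) and -0.07 (adjusted p = 0.683, edgeR). On raw totals both were lower, by -1.0 and -1.14. Against Pre-osteoblast/chondrocyte the log2 change of Spp1 was -3.76 (adjusted p = 1.1e-33) and that of Ibsp -0.34 (adjusted p = 0.099, edgeR).

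**Figure D2:**
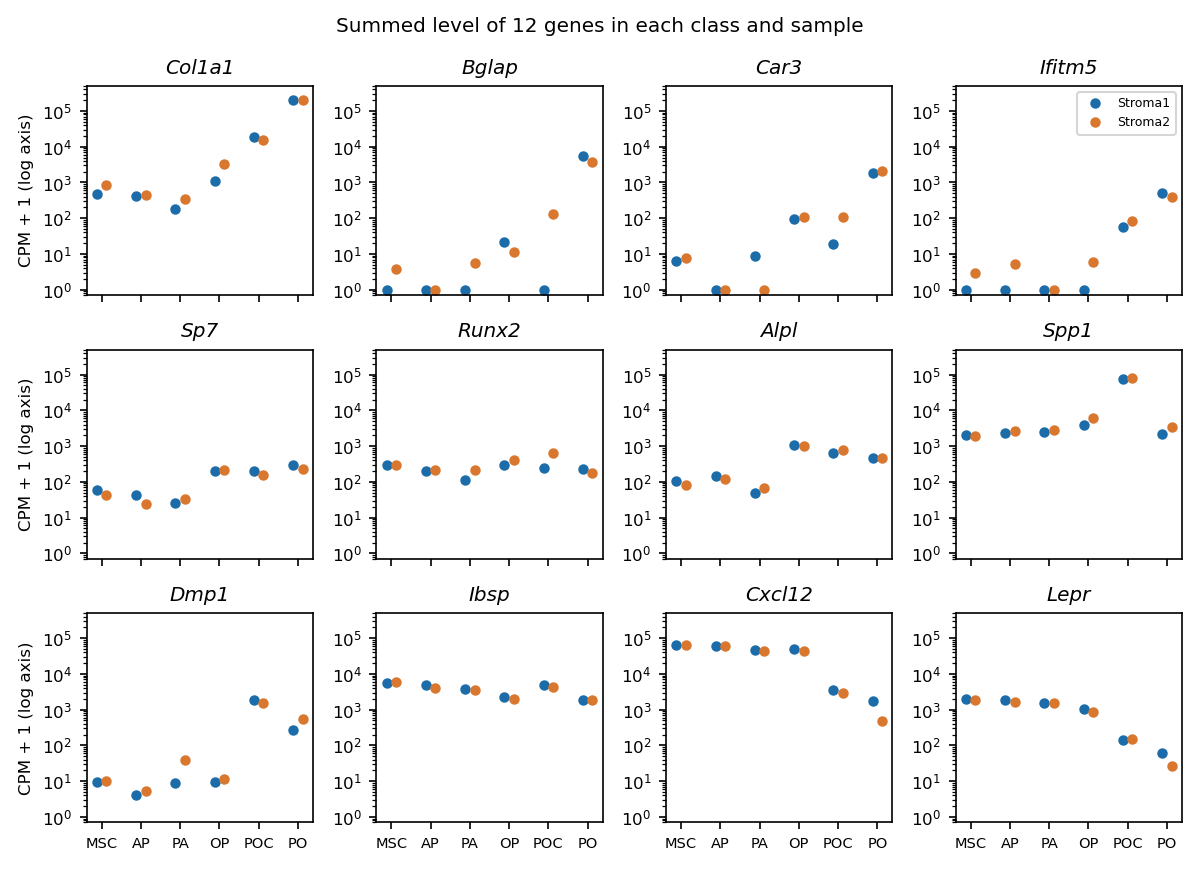
Level of 12 genes as CPM + 1 (log axis) in the sums of each class and sample; MSC, AP (Adipocyte progenitor), PA (Pre-adipocyte), OP (Osteoblast progenitor), POC (Pre-osteoblast/chondrocyte), PO (Pro-osteoblast), with 1 point per sample. Bglap reaches 5549.4 and 3719.3 CPM in PO, Spp1 74070.0 and 78255.0 CPM in POC, and Cxcl12 65663.8 CPM in MSC.

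Genes outside these lists were among the highest and the lowest. Cthrc1, a secreted protein of collagen-rich matrix, had 1030.8 and 1062.2 CPM in the class and at most 16.7 CPM elsewhere, and 99.7% of its counts lay in the class. Cpz, a carboxypeptidase, had 774 and 650 CPM against at most 8.35 CPM. Entpd3, an ectonucleotidase, had 272 and 306 CPM, and Cgref1 had 887 and 733 CPM. These 4 genes, picked from the largest changes, were above every other class in both samples. Their log2 changes were 10.57, 10.47, 9.74 and 8.74, the first 3 of which become 9.05, 8.98 and 7.52 with classes at 0 set to the floor. At the other end, Ogn, a small proteoglycan, had 5.34 and 1.38 CPM against 41.8 to 554 CPM (log2 change -6.14). Its 3 counts pooled over both samples gave a level 216-fold below the mean CPM of the others, with a 95% counting interval of 73.8 to 1045.4. Col4a2, a basement membrane collagen, had 0 and 3.45 CPM against 36.2 to 727 CPM (log2 change -5.85), and Igf1 had 5.34 and 2.07 CPM against 0 to 560 CPM (-5.78). Cyp1b1 had 48.1 and 3.45 CPM against 359 to 1580.7 CPM (-5.69). These low genes were picked for their large changes, so their distance from the other classes follows from the choice. For Igf1 the lowest other value was 0 CPM. How many of all tested genes lie apart in this way was not counted.

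Mineralization genes were mostly higher: 14 of 20 tested, with 2 lower and a median of 5.13 (4.12 with classes at 0 set to the floor). Against Pre-osteoblast/chondrocyte alone 10 were higher and 4 lower, with a median of 1.49. The list summed to 16541.3 and 15563.2 CPM in the class, below the highest other class with 83505.4 and 86666.0 CPM. It shares Bglap, Bglap2, Bglap3, Smpd3, Spp1 and Ibsp with the matrix list and holds the marker Car3, so the results of these lists are not independent. Ifitm5, an osteoblast membrane protein, had 523 and 383 CPM against 0 to 83.5 CPM (log2 change 8.12, SE 0.28). Smpd3, a sphingomyelinase needed for bone mineralization, had 379 and 390 CPM against at most 4.19 CPM (10.17, or 7.49 with the floor). Phospho1, a phosphatase of matrix vesicles, had 74.8 and 37.2 CPM, and Slc13a5, a citrate transporter, 112 and 139 CPM. Car3, a carbonic anhydrase, had 1837.3 and 2085.8 CPM against 0 to 109 CPM (log2 change 8.85). Alkaline phosphatase (Alpl), which frees phosphate for mineral, had 470 and 463 CPM, below Osteoblast progenitor cells with 1060.3 and 1030.8 CPM. Its log2 change was 2.12 (SE 0.13) against the mean of the 5 classes, -0.01 against Osteoblast progenitor and 0.36 (adjusted p = 0.19) against Pre-osteoblast/chondrocyte. Enpp1, which makes the mineral inhibitor pyrophosphate, was lower, with 0 and 4.82 CPM (log2 change -3.68).

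Of 16 tested osteogenic transcription factors 9 were higher and 3 lower, with a median of 1.47. Sp7 had 294 and 228 CPM against 23.1 to 211 CPM (log2 change 2.90, SE 0.19). Mef2c, which acts in late osteoblasts and osteocytes, had 267 and 304 CPM (3.79). Dlx3 had 42.7 and 48.9 CPM and 0 counts in 2 classes (5.59, or 4.53 with the floor). Runx2, in contrast, had 230 and 179 CPM, inside the range of the other classes (112 to 635). Its log2 change of 0.46 (adjusted p = 0.0305) was -0.63 on raw totals, and it was not called with DESeq2 or with the 2 collagens left out.

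Genes of osteocytes, the cells buried in bone, were mostly higher than the mean of the other classes among those tested. Dmp1, a phosphoprotein of early osteocytes, had 267 and 559 CPM, below Pre-osteoblast/chondrocyte with 1847.2 and 1503.5 CPM and above the other 4 classes, which had at most 37.2 CPM. Phex, an endopeptidase of the phosphate pathway, had 139 and 192 CPM (log2 change 2.64). Wisp1 had 614 and 627 CPM (5.09) and the Wnt inhibitor Dkk1 21.4 and 39.3 CPM (5.22, and not called by DESeq2). Sost, Fgf23 and Npy had 0 counts in the class. In all, 8 of 11 tested members were higher and 1 lower. Against Pre-osteoblast/chondrocyte alone 4 were higher and 4 lower, with a median of 1.28. The whole list summed to 2537.0 and 3337.5 CPM in the class, below the highest other class with 4201.5 and 4101.1 CPM.

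The machinery that folds, modifies and exports collagen was higher as a group. Of 49 tested members 35 were higher and 5 lower, with a median of 1.63. On raw totals, 24 were higher and 13 lower, with a median of 0.55. Serpinh1 had 7696.5 and 7060.3 CPM (log2 change 2.69), the lysyl hydroxylase Plod2 497 and 480 CPM (3.58), the KDEL receptor Kdelr3 214 and 188 CPM (3.25), and Creb3l1, a transcription factor of the secretory pathway, 534 and 491 CPM (3.54). Loxl1, a cross-linking enzyme, was lower (log2 change -5.00), while its relative Lox was higher (2.69). Genes of the unfolded protein response were not higher as a group against the mean of the others. Of 15 tested members 5 were higher and 5 lower, with a median of -0.36. The result depended on the class compared. Against Pre-osteoblast/chondrocyte alone 4 were higher and 1 lower, with a median of 0.78, and the medians against Osteoblast progenitor and MSC were -0.10 and -0.24. The main luminal chaperone Hspa5 had 475 and 343 CPM against a mean of 1835.4 CPM. Its log2 change was -0.99, and -0.06 against Pre-osteoblast/chondrocyte.

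Matrix proteases differed by member, with 6 of 19 tested higher and 12 lower. Mmp2, a gelatinase, had 1057.5 and 1106.3 CPM against 16.0 to 978 CPM (log2 change 4.25), and the membrane protease Mmp16 74.8 and 116 CPM against at most 10.3 CPM (5.42). Mmp13, the collagenase that cleaves fibrillar collagen, had 85.5 and 78.6 CPM against a mean of 5904.6 CPM (-3.65, and -7.16 against Pre-osteoblast/chondrocyte). Its level was uneven between libraries, with 152 and 29.5 CPM in those of Stroma1 and 69.4, 10.6 and 141 CPM in those of Stroma2.

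Signalling genes differed by list. In the BMP and TGF-beta list 3 of 28 tested were higher and 16 lower, and against Pre-osteoblast/chondrocyte alone 2 were higher and 5 lower (median -0.15). Bmp3 had 155 and 130 CPM (log2 change 5.51) and the decoy receptor Bambi 155 and 245 CPM (3.09), while the BMP antagonist Grem1 had 10.7 and 3.45 CPM (-4.82). Nog, another antagonist, had 0 counts, which sets it at least 5.66-fold lower with a floor of 3 counts over the class. In the Wnt list 4 of 17 were higher, 6 lower and 7 not called, with a median of -0.14. Rspo3, which strengthens Wnt signals, had 1 count in the class (log2 change -6.08, SE 0.66). Over the pooled counts of both samples its level was 186-fold below the mean CPM of the others (95% counting interval 33.3 to 7331.7). This fold is from CPM without TMM factors. The folds with a floor in this paragraph use TMM factors and a mean on the log scale, so they are not comparable with it. Of 13 tested hormone and vitamin receptors only Pth1r, the parathyroid hormone receptor, was higher (256 and 236 CPM, log2 change 2.05), and 8 were lower. Against Pre-osteoblast/chondrocyte 3 of these receptors were lower. Of 8 tested IGF genes none was higher and 6 were lower, with Igfbp4 at 449 and 107 CPM against a mean of 8812.5 CPM. The first value rests on library 1.1 with 843 CPM, and library 1.2 had 118 CPM. Against Pre-osteoblast/chondrocyte alone 1 IGF gene was higher (Igfbp3, log2 change 3.83) and 3 were lower, with a median of -0.55. Tnfsf11 (RANKL), the cytokine that drives osteoclast formation, had 0 counts in the class and 79.6 to 618 CPM in the others, at least 45.9-fold lower with the same floor.

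Genes of leptin receptor stromal cells were low. Of 20 tested 18 were lower and none higher, with a median of -4.13. Against Pre-osteoblast/chondrocyte alone, 10 were lower and 1 higher, with a median of -1.10 and log2 changes of -0.95 for Cxcl12 and -1.29 for Lepr, so much of the low level was shared with that class. Cxcl12 had 1687.8 CPM in Stroma1 and 482 in Stroma2, against 2998.6 to 65663.8 CPM, a log2 change of -4.12 (SE 0.20). The first value rests on library 1.1 with 2856.1 CPM, and library 1.2 had 707 CPM. The log2 change of Cxcl12 was -4.75 without library 1.1. Lepr had 58.8 and 24.8 CPM against 145 to 1951.3 CPM (-3.88, SE 0.23), with 93.6 CPM in library 1.1 and 29.5 CPM in library 1.2. In Stroma1 the whole list summed to 3380.9 CPM in the class and in Stroma2 to 1247.6 CPM, against at least 7834.7 CPM in any other class. Cxcl12 was counted in 38.1% and 28.9% of class cells. Barcodes under 500 counts had 10751.3 and 14337.3 CPM of it, and the part of free RNA in the class values was not tested. Of 15 tested adipogenic genes 8 were lower, such as Adipoq with 48.1 and 9.65 CPM, and 1 was higher. Adipoq was not called without library 1.2. Against Pre-osteoblast/chondrocyte alone 3 members were higher and 4 lower, with a median of 0.11, and Lpl was higher there (log2 change 2.51).

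**Figure D3:**
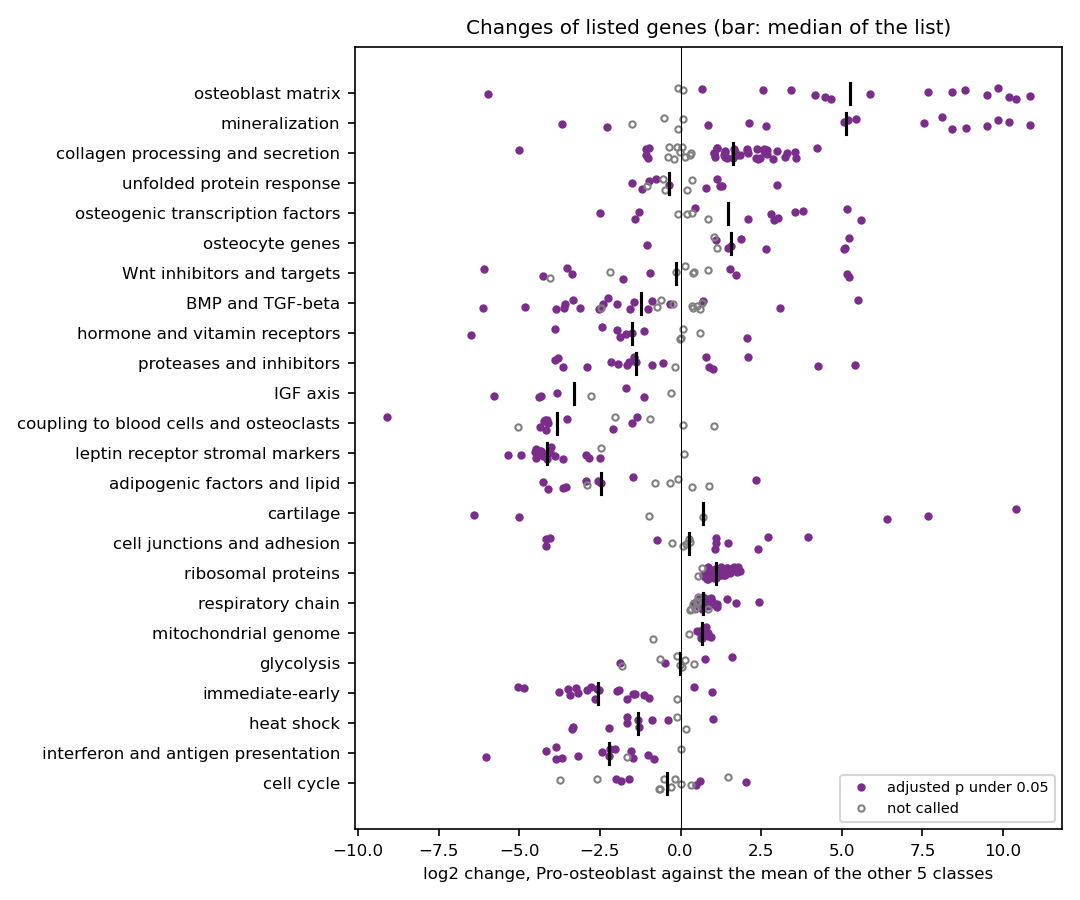
Log2 change of each tested gene of 24 lists (horizontal axis) between Pro-osteoblast and the mean of the other 5 classes; filled points have an adjusted p under 0.05 and each bar is the list's median. Osteoblast matrix has a median of 5.26 and leptin receptor stromal markers of -4.13.

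Immediate-early genes, which are induced within minutes of stimulation, were lower in 19 of 22 tested and higher in 2, with a median of -2.55. This median includes both adipocyte classes, and against single classes it was smaller: -1.59 for Pre-osteoblast/chondrocyte (15 lower), -0.98 for Osteoblast progenitor (11 lower) and -1.03 for MSC (11 lower). Fos had 299 and 274 CPM against a mean of 7212.6 CPM (log2 change -3.19), and Nr4a1 5.34 and 6.2 CPM against 66.8 to 3550.7 CPM (-4.86). Heat shock genes were lower in 9 of 12 and higher in 1 (median -1.31), but lower in 3 against Pre-osteoblast/chondrocyte (median -0.52), in 2 against Osteoblast progenitor (-0.41) and in 4 against MSC (-0.41). Interferon and antigen presentation genes were lower in 14 of 16 and higher in 0 (median -2.21). Against Pre-osteoblast/chondrocyte alone 7 were lower and 0 higher (median -1.07). Against Osteoblast progenitor 14 were lower (median -2.54) and against MSC 15 (-2.68). B2m had 1415.4 and 1254.5 CPM (log2 change -1.0). Against Pre-osteoblast/chondrocyte its log2 change was -0.17 (adjusted p = 0.543, edgeR).

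For housekeeping lists the direction depended on the scaling. With TMM factors, 34 of 36 ribosomal protein genes were higher (median 1.09), as were 25 of 35 respiratory chain genes (0.69) and 10 of 12 mitochondrial genome genes (0.66). On raw totals the same medians were 0.03, -0.39 and -0.40, and 2, 13 and 8 members were lower. Rplp0, for example, had 1426.1 and 1158.7 CPM against 468 to 1937.8 CPM. With the 2 collagens removed from raw totals, the medians were 0.80, 0.39 and 0.36. The result also depended on the class compared. With TMM factors, 5, 5 and 1 members were higher against Pre-osteoblast/chondrocyte alone and 0 lower, with medians of 0.15, 0.37 and 0.07. Against Osteoblast progenitor 34, 13 and 5 were higher and 0, 0 and 1 lower, with medians of 1.03, 0.54 and 0.22.

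**Figure D4:**
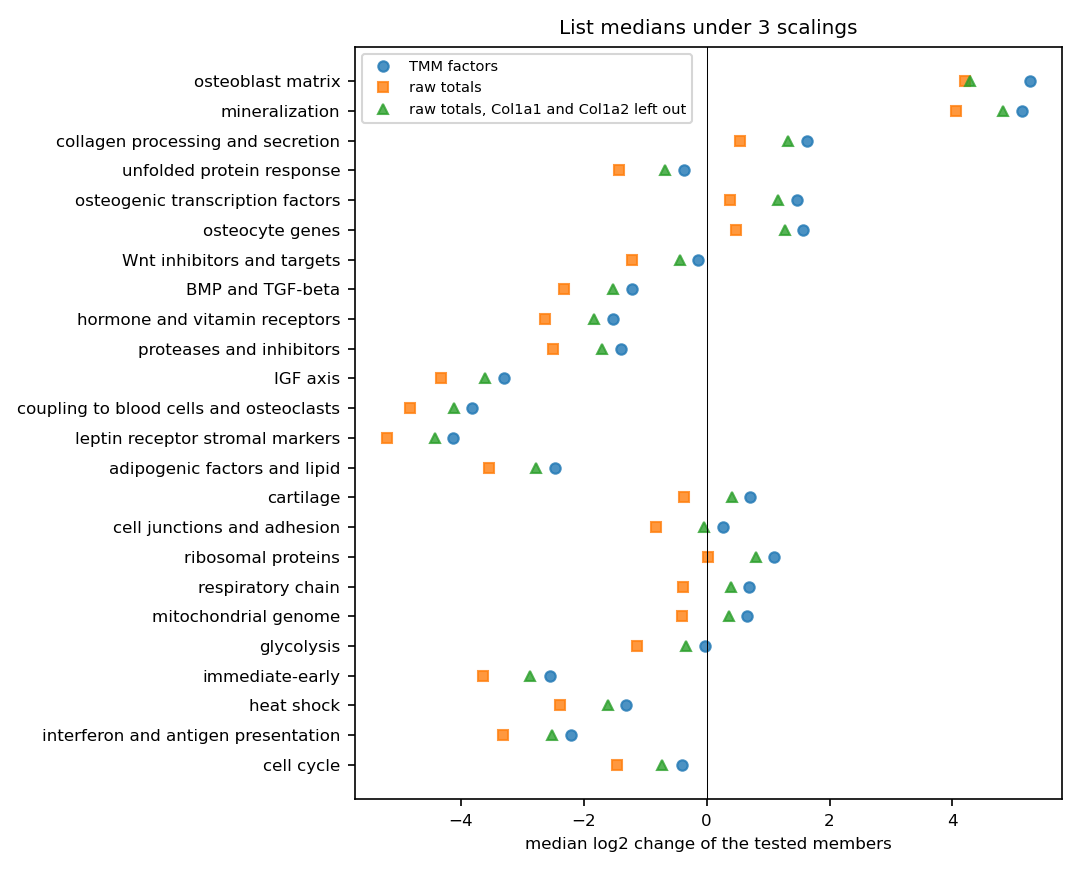
Median log2 change of each of 24 lists (horizontal axis) under 3 scalings, TMM factors (circles), raw totals (squares) and raw totals without Col1a1 and Col1a2 (triangles). Squares lie left of circles in every list, and for ribosomal proteins the medians are 1.09, 0.03 and 0.80.

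Markers of other cell types had low sums in the class, except for the list that holds Dcn. Of the macrophage and osteoclast list 9 of 14 genes had 0 counts in the class, among them Lyz2, C1qa and Adgre1, and its sum was 182 and 175 CPM against 171 to 1010.7 CPM in other classes. Ctsk, in that list and also known from mesenchymal cells, was higher with TMM factors (log2 change 1.02) and at -0.06 on raw totals. Neutrophil markers summed to 21.4 and 8.27 CPM, inside the range of the other classes in both samples. Endothelial markers summed to 10.7 and 71.0 CPM, against 18.1 to 88.3 CPM in Stroma1 and 33.4 to 189 CPM in Stroma2. Red cell markers summed to 74.8 and 108 CPM, inside the range of the other classes (54.3 to 122 CPM in Stroma1, 25.1 to 110 CPM in Stroma2). Of 2 tested red cell markers 1 was higher. B cell markers summed to 101 and 92.4 CPM and Schwann cell markers to 128 and 80.0 CPM, in CPM below the other classes in both samples. Mural cell markers summed to 48.1 and 40.0 CPM against 200 to 578 CPM. The fibroblast and tendon list stood at 4347.6 and 5412.9 CPM, nearly all of it Dcn. Cartilage genes were split, with Col2a1 at 347 and 745 CPM (log2 change 6.41) beside Col11a1 and Col11a2, and with Sox9, the factor that directs cartilage formation, at 0 and 1.38 CPM (-5.02).

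The class was also set against 3 single classes. Against Pre-osteoblast/chondrocyte, 561 genes were higher (9.01% of those tested) and 513 lower (8.24%), against Osteoblast progenitor 979 (15.7%) and 1002 (16.1%), and against MSC 1242 (19.9%) and 1165 (18.7%). These comparisons share the class's own sums and are not independent of each other. Against Pre-osteoblast/chondrocyte, with 91 cells in all, Bglap differed by a log2 change of 6.54, Col1a1 by 4.53, Sp7 by 1.52 and Dmp1 by -0.92. The matrix list had 15 members higher and 2 lower in that comparison, and ribosomal proteins 5 higher.

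The 2 samples gave similar levels within the class. Of 400 tested genes with a mean of at least 200 CPM, 98.2% were within 2-fold between samples. The median log2 ratio of Stroma1 to Stroma2 was 0.16. Without shared barcodes, 115 of the named genes kept their direction and their side of the threshold, 6 were no longer called and 0 reversed.

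**Figure D5:**
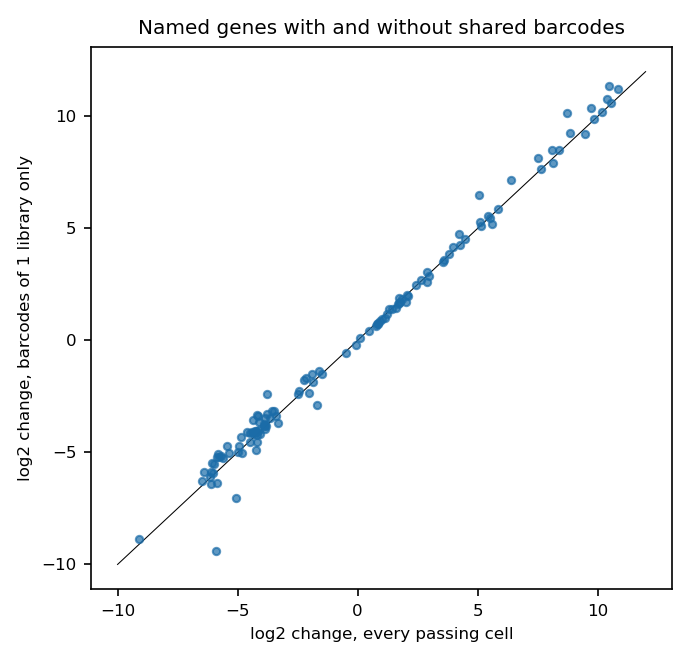
Log2 change of each named gene against the mean of the other 5 classes with every passing cell (horizontal axis) and with only barcodes found in 1 library (vertical axis); the line marks equal values. Bglap moves from 10.83 to 11.21 and Cxcl12 from -4.12 to -3.98.

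The authors' deposited fate values placed the class at the osteoblast end. Its median osteoblast fate probability was 0.411 in Stroma1 and 0.412 in Stroma2, and the medians of the other 5 classes lay between 0.289 and 0.338. The deposited osteoblast pseudotime ran from 0.816 to 0.998 in Stroma1 and from 0.775 to 1.0 in Stroma2. The deposited potential score had a median of -0.551 and -0.556 there, and of 0.179 and 0.178 in MSC. These values were computed by the authors from the same cells and are no independent check of the class.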

How the data were processed

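The authors deposited 1 table of raw counts per barcode and gene for 15028 barcodes and 25289 genes, with library, sample, filter and class labels per the file headers. Reads were processed with Bowtie 1.1.1 and GRCm38, per the submitters' processing notes, and how the classes were made is not given in the sources used here. Deposited mitochondrial shares and fate probabilities are fractions, and the deposited potential is a score; both were used as given.

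Counts were summed per sample and class. Classes needed 15 cells or more in both samples, which left 6 and dropped Pro-chondrocyte (14 cells). Sums were fitted in R 4.3.3 with edgeR 4.0.16 (TMM, filterByExpr with a minimum count of 10, quasi-likelihood F-test, Benjamini-Hochberg over 6229 genes, threshold 0.05), with class and sample as terms and 5 residual degrees of freedom. The sample is a block because the classes of a sample share its libraries. DESeq2 1.42.0 was an alternative. Doublets were marked per library with Scrublet in scanpy 1.11.5 (expected rate 0.05; 18 of 2847 cells, 4 in the class) and kept. The procedure was tested on simulated data. Total class counts of 187228 and 1450797 make Stroma1 the less precise sample.

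Named genes were the 15 highest and 12 lowest called genes at 200 CPM or more, up to 4 per list and a fixed set; a few further list members are given as examples. The members and lists were chosen with earlier results of these data known.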

Additional observations from a re-analysis of the deposited data

Results flagged for a closer look

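Outside the authors' filter, 36 barcodes with at least 500 counts had 10% or more of their counts in Col1a1 and Col1a2, a signal in data that no comparison above uses. Together they had 25.1% of counts in these 2 genes and 1889.6 CPM of Bglap. Their median was 2519.5 counts, and their median mitochondrial share 4.79%, with 6 of them above 14.9%, the highest share among passing cells.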

How the results depend on the processing

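Called counts depended most on thinning and scaling. Thinned to 500 counts per cell, 2014 genes were tested in place of 6229, so fewer calls need not mean fewer differences. Higher and lower genes then numbered 430 and 393 against the mean of the other classes and 165 and 140 against Pre-osteoblast/chondrocyte. Against Osteoblast progenitor they numbered 345 and 409, and against MSC 428 and 502. Of the calls against the mean of the others, 98.6% of the higher and 97.5% of the lower were also main calls. On raw totals, added after seeing the data, higher and lower genes numbered 410 and 3606, 194 and 1870, 297 and 3609, and 408 and 4007 in the same order of comparisons. On raw totals without Col1a1 and Col1a2, lower genes numbered 1554 against Osteoblast progenitor and 1878 against MSC. DESeq2 called 371 genes higher than in Pre-osteoblast/chondrocyte. Without the replicate block, 1389 genes were higher and 1137 lower than the mean of the others. With RLE size factors 1161 were higher and 1245 lower, which is 48.3% higher of those called, against 54.3% with TMM. Against the mean of the others, no gene was called in opposite directions by the alternatives run other than raw totals, where 84 were.

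Of the named genes, Runx2 (-0.63), Spp1 (-1.0), mt-Nd4 (-0.12), mt-Co2 (-0.19), mt-Nd1 (-0.20), mt-Co1 (-0.26), Pgam1 (-0.34) and Ctsk (-0.06) reversed on raw totals. The class share moved to 2.71% in Stroma1 without shared barcodes, and in Stroma2 to 12.5% with each barcode once and 8.81% without shared ones. Genes per cell in Stroma2 moved from 199 to 211 at 300 counts without the collagens. Fits on 1 sample gave values with no test, 10.45 and 13.37 for Bglap.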
